A study of Mus musculus with 9 samples.

Results

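The genes described here are 8 genes of blood coagulation and fibrinolysis, chosen by symbol from the 23309 symbols of a table of RNA levels in mouse podocytes. They are F3, Tfpi, Thbd, Procr, Plat, Plau, Plaur and Serpine2, and all 8 were found, each on a single row. RNA came from GFP-positive podocytes, the epithelial cells that cover the glomerular capillaries, isolated from mice aged 7 to 8 weeks and labelled wildtype. In these mice a Cre recombinase active in podocytes switches the mTmG reporter to GFP, so all groups carry the same transgenes. There were 3 libraries from mice given PBS, 3 taken 9 days after a treatment abbreviated ADR and 3 taken 14 days after ADR. The labels leave unsaid if each library is a different mouse, and the p-values therefore measure only library-to-library spread, which may be technical.

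Coagulation starts when tissue factor (F3) binds factor VII and ends when thrombin turns fibrinogen into fibrin. Tissue factor pathway inhibitor (Tfpi) blocks the first step, while thrombomodulin (Thbd) binds thrombin and, with the endothelial protein C receptor (Procr), redirects it to activate the anticoagulant protein C. Fibrin is dissolved by plasmin, which tissue-type plasminogen activator (Plat) and urokinase (Plau) release from plasminogen, urokinase acting at its receptor (Plaur), and protease nexin 1 (Serpine2) inhibits thrombin and both activators. In the glomerulus, endothelial cells are a known source of Thbd and Plat, and the urokinase receptor has been studied in podocyte injury.

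Levels are in FPKM, which divides fragments by transcript length and sequencing yield, so different genes can be compared per length. Depth relative to PBS replicate 2, estimated from the lowest values, was 1.0 to 1.085 in the PBS libraries, 0.786 to 0.889 on day 9 and 0.239 to 0.569 on day 14. Between 14 and 15 of 15 podocyte markers reached 1 FPKM in each library, and their summed level was 6511 to 10425 FPKM in the PBS group, 7355 to 12691 on day 9 and 2022 to 3848 on day 14. The libraries ADR_D9 replicate 3 and ADR_D14 replicate 1 stood apart, because 21 of 22 endothelial markers (Cldn5, which podocytes are known to express, left out) were above 4 times the highest PBS library and at least 1 FPKM in each. Their endothelial sums were 4175 and 1209 FPKM, against 5.79 to 15.3 with PBS and 1.69 to 37.7 in the other libraries after ADR. The leukocyte sums were 1450 and 2258 FPKM there and 7.39 to 83.9 elsewhere, and the distal tubule sums were 805 and 22146 FPKM there and 7.67 to 98.2 elsewhere. The proximal tubule sum was 3156 FPKM in ADR_D14 replicate 1, 179 in ADR_D9 replicate 3 and 17.8 to 150 elsewhere. The Y-linked transcript Eif2s3y was at 31.6 to 43.7 FPKM in all PBS libraries, at 36.6 and 60.3 in ADR_D9 replicate 1 and ADR_D14 replicate 2, and at 0 to 0.777 in the other libraries after ADR, so libraries with and without it were not balanced between the groups. Results that rest on these 2 marker-rich libraries are given with and without them. In sorted cells measured in bulk, fewer cells of a type and less RNA per cell cannot be told apart.

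The members ran from undetected RNAs to some of the most abundant ones. Plat ranked between 2 and 124 among the 23309 symbols in each library, and F3 between 100 and 938. Tfpi was at 4.65 to 28.3 FPKM in all libraries. Thbd, Plaur and Serpine2 varied most between libraries, and Plau and Procr were at or close to 0 nearly everywhere.

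**Figure D1:**
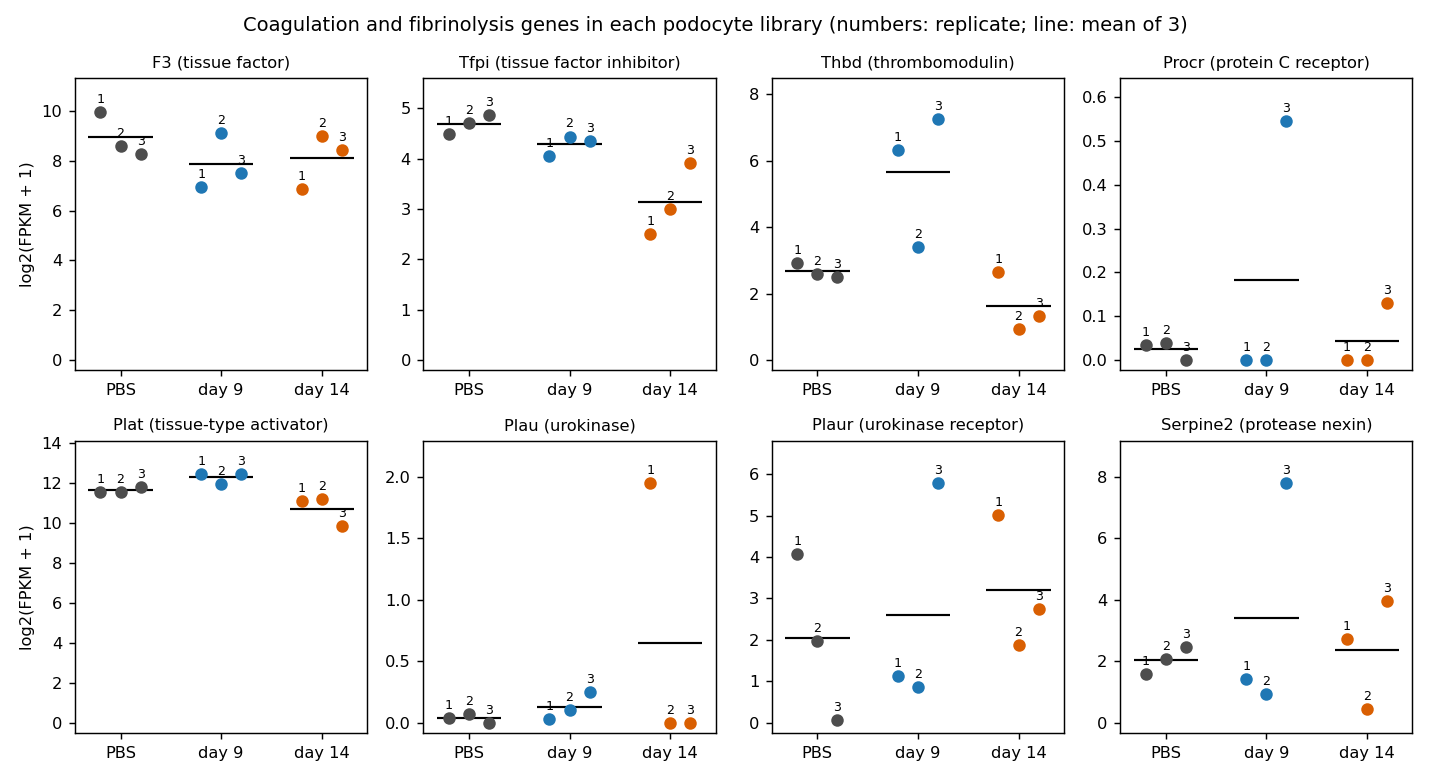
Level of each member by library on the log2(FPKM + 1) scale, with the group on the horizontal axis, 1 point per library numbered by replicate and a line at the mean of 3 libraries. Tfpi and Plat were lower in all day 14 libraries than in all others, and Thbd was higher in all day 9 libraries than in all others.

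In all, 6 of the 8 members reached 1 FPKM in 3 libraries and were tested, which leaves out Plau and Procr. The test was limma on log2(FPKM + 1), a scale that understates changes of low genes, with p-values adjusted over all genes tested. On day 9 against PBS, 0 of the 6 passed limma (adjusted p under 0.05), and 0 of 9788 genes did (0.0% called, with 304 genes at an unadjusted p under 0.05, Thbd among them). Thbd and Plat nevertheless lay higher in every day 9 library than in every PBS library (2 members, against 6.77% of all genes), and Tfpi lay lower (1 member, against 6.63%), where 13.4% of all genes were without overlap in either direction.

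On day 14 against PBS, 1 of 6 members passed, Tfpi, which was lower. Of all genes tested, 17.1% passed, 6.32% as higher and 10.7% as lower. Tfpi and Plat were lower without overlap (2 members), as were 23.8% of all genes, with 15.6% higher and 39.4% in either direction.

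On day 14 against day 9, 2 of 6 members passed, Thbd and Plat, both lower. Of all genes tested, 15.7% passed, 5.71% as higher and 9.98% as lower. Thbd, Plat and Tfpi were lower without overlap (3 members), as were 24.6% of all genes, with 13.2% higher and 37.7% in either direction. The median change of the 6 members was 0.56, −0.73 and −0.87 in the 3 comparisons, against 0 for all genes, since changes are given relative to the median gene. Each pair of comparisons shares the libraries of a group. With the 2 marker-rich libraries left out, 0, 1 and 1 members passed, where 0.0%, 23.3% and 13.6% of all genes did.

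**Figure D2:**
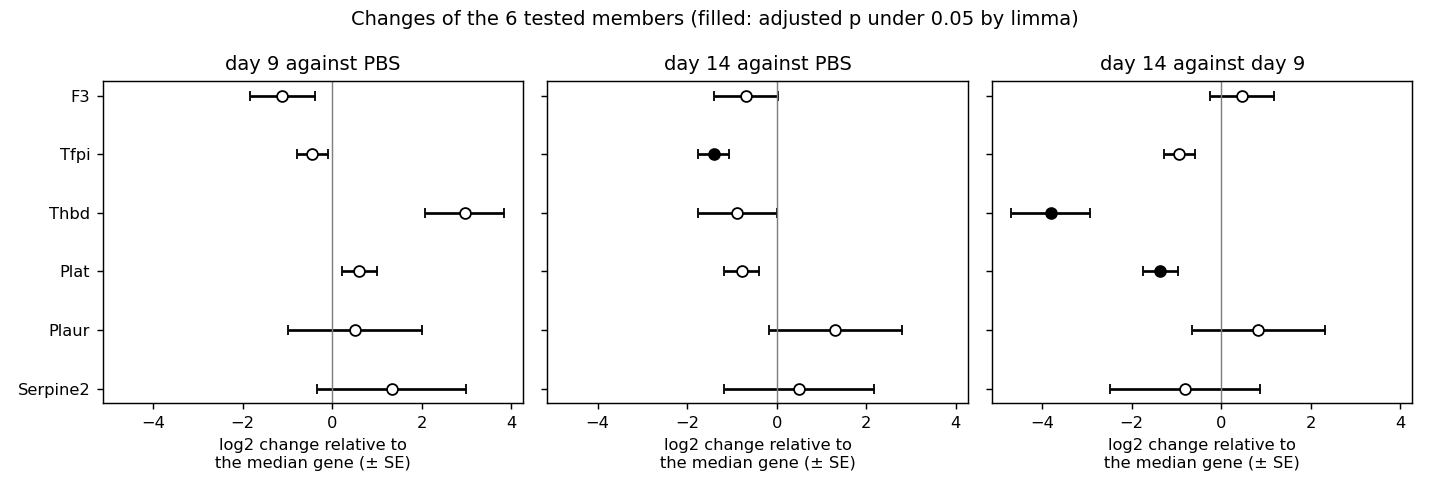
Log2 change of the 6 tested members against the median gene (horizontal axis) in the 3 comparisons, with bars of 1 standard error from limma and filled points where the adjusted p was under 0.05. The filled points are Tfpi on day 14 against PBS at −1.41 and Thbd and Plat on day 14 against day 9 at −3.81 and −1.36.

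F3, the receptor that starts coagulation, was at 982, 384 and 309 FPKM in PBS replicates 1 to 3. It was at 122, 547 and 183 FPKM on day 9 and at 117, 513 and 345 FPKM on day 14. The groups overlapped in every comparison, and PBS replicate 1 was the highest library of all. Group means were 559 ± 369 for PBS, 284 ± 230 for day 9 and 325 ± 199 FPKM for day 14 (SD, n = 3). Its log2 change against the median gene was −1.11 ± 0.72 (SE) on day 9 and −0.68 ± 0.72 on day 14 against PBS, and F3 passed no comparison. These changes were −0.59 and −0.19 without PBS replicate 1, and the day 14 change was −0.04 without ADR_D14 replicate 1.

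The promoter window of F3, the most abundant of the 5 members (of 8) with an entry in the RefSeq promoter table (build GRCm38.p6), is shown beside that of its inhibitor Tfpi, the only member that passed against PBS. Each window runs from 250 bases before to 50 bases after the annotated start. Capitals mark matches on either strand to TGANTCA, the letters bound by AP-1, and to GGGCGG, the letters bound by Sp factors. The F3 window is chr3:121723287-121723586 on the plus strand and the Tfpi window, at the upstream of its 2 annotated starts, is chr2:84476710-84477009 on the minus strand.
F3: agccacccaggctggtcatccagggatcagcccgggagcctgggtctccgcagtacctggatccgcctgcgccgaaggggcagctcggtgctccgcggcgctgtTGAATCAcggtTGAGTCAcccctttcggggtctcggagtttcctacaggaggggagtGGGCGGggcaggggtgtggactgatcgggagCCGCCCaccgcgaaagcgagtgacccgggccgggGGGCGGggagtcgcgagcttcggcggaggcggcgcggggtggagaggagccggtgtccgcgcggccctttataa
Tfpi: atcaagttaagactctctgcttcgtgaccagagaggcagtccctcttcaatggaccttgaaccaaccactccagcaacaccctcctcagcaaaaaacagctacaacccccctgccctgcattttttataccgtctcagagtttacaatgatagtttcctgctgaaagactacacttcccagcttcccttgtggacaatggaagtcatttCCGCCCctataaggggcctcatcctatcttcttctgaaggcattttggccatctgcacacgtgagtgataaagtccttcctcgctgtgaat
The F3 window held 2 matches to TGANTCA, starting 146 and 135 bases before the start, and 3 to GGGCGG. The Tfpi window held 0 and 1. Of 32851 windows of this length in the table, 7.81% held TGANTCA and 35.7% held GGGCGG. GCGNGGGNG, letters shared by EGR factors and WT1, the factor named in the title of the series, stood in 12.3% of all windows and may overlap GGGCGG. It matched 3 times in the Serpine2 window, 1 time in the Plaur window and 0 times in those of F3, Procr and both Tfpi starts. A match is a string of letters and not a measured binding site.

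Tfpi, which blocks the complex of tissue factor and factor VII, was lower on day 14. It was at 21.4, 25.1 and 28.3 FPKM with PBS, at 15.6, 20.7 and 19.5 FPKM on day 9 and at 4.65, 6.95 and 13.99 FPKM on day 14. All day 14 libraries lay below all others, and all day 9 libraries below all PBS libraries. The level fell from 24.9 ± 3.48 to 8.53 ± 4.86 FPKM (mean ± SD, n = 3) between PBS and day 14, a log2 change of −1.41 ± 0.35 (SE, adjusted p = 0.0231 by limma). On day 9 the change was −0.44 ± 0.35 (adjusted p = 1.0 by limma), and day 14 against day 9 gave −0.93 ± 0.35 (adjusted p = 0.0565 by limma), which passed without ADR_D14 replicate 3 (−1.31, adjusted p = 0.0221), with a filter of 5 FPKM (adjusted p = 0.0472) and with a common total (adjusted p = 0.0263). The day 14 change was −1.07 and still passed without the 2 marker-rich libraries (adjusted p = 0.0328 by limma). The call was lost without PBS replicate 2, PBS replicate 3 or ADR_D14 replicate 2 (changes of −1.42, −1.29 and −1.35), with only the compared groups in the fit and with a term for Y-linked transcripts (−1.55), with adjusted p from 0.0132 to 0.0974 over 22 alternative settings. Of all genes, 0.0% passed without PBS replicate 2 and with the Y-linked term, 1.62% without PBS replicate 3, 13.4% without ADR_D14 replicate 2 and 4.8% with only the compared groups.

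The ratio of F3 to Tfpi, set here as a description of the starter against its inhibitor, was 46.0, 15.3 and 10.9 with PBS. The day 9 libraries had ratios of 7.84, 26.4 and 9.42, and the day 14 libraries had 25.2, 73.7 and 24.7. The groups overlapped in all comparisons. The mean log2 ratio was 0.86 higher on day 14 than with PBS (two-sided exact permutation p = 0.4, n = 3 per group, where the smallest possible p is 0.1) and 1.52 higher than on day 9 (exact permutation p = 0.3).

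Thbd, the thrombin receptor that turns thrombin towards protein C, was highest on day 9. It was at 6.52, 5.06 and 4.65 FPKM with PBS, at 79.5, 9.65 and 152 FPKM on day 9 and at 5.26, 0.925 and 1.51 FPKM on day 14. All day 9 libraries lay above all others, but they differed among themselves by more than the whole PBS group, with replicate 2 near PBS. Group means were 5.41 ± 0.986 for PBS, 80.3 ± 71.1 for day 9 and 2.57 ± 2.35 FPKM for day 14 (SD, n = 3). Against PBS the day 9 log2 change was 2.96 ± 0.88 (SE, unadjusted p = 0.0084, adjusted p = 1.0 by limma), and the day 14 change was −0.88 ± 0.88 (adjusted p = 0.441 by limma). Between day 9 and day 14 Thbd fell by 3.81 ± 0.88 on the log2 scale (adjusted p = 0.0216 by limma).

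The endothelial sums of the day 9 libraries were 37.7, 8.44 and 4175 FPKM in replicates 1 to 3, so Thbd and these markers were both highest in replicate 3 and both lowest in replicate 2. In replicate 1, Thbd was more than 10 times the PBS level with Pecam1, an endothelial adhesion molecule, at 2.10 FPKM and Emcn, an endothelial sialomucin, at 4.44 FPKM (272 and 424 in replicate 3). With PBS, Pecam1 was at 0.423 to 1.07 FPKM and Emcn at 0.211 to 0.527 FPKM. Of the 22 endothelial markers, 8 reached 1 FPKM in replicate 1, against 1 to 4 with PBS. There, 2 were above 4 times the highest PBS library and at least 1 FPKM. Red cell markers summed to 548, 0.350 and 248 FPKM in day 9 replicates 1 to 3, to 66.5 in ADR_D14 replicate 1 and to 0.563 to 5.45 with PBS. ADR_D14 replicate 1, with an endothelial sum of 1209 FPKM, had Thbd at 5.26 FPKM. The part of other cells in the Thbd levels was not tested. Without the 2 marker-rich libraries, Thbd changed by 2.19 on day 9 against PBS (adjusted p = 0.858 by limma). Its day 14 change against PBS was then −1.36 (adjusted p = 0.173 by limma). Day 14 against day 9 gave −3.55 without them (adjusted p = 0.033 by limma). The call was lost without ADR_D9 replicate 1, ADR_D9 replicate 3 or ADR_D14 replicate 2 (−3.46, −3.06 and −3.47), with no filter (−4.01) and with only the compared groups, and adjusted p ran from 0.0153 to 0.0706 over 22 alternatives. Of all genes, 5.18%, 4.26% and 12.3% passed without these libraries in turn. With no filter 4.63% passed, and with only the compared groups 2.68%, against 15.7% in the main fit.

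Procr, the receptor that presents protein C to thrombomodulin, was at 0.0247, 0.0268 and 0 FPKM with PBS. It was at 0, 0 and 0.460 FPKM on day 9 and at 0, 0 and 0.0941 FPKM on day 14. The highest value stood in ADR_D9 replicate 3, the library with the highest endothelial sum, and no library reached 1 FPKM, so Procr was not tested. Proc, which encodes protein C itself, was under 1 FPKM in all libraries except ADR_D14 replicate 1, where it was at 15.3 FPKM.

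Plat, which encodes the activator of plasminogen that works on fibrin, was the most abundant member in every library. It was at 3045, 3045 and 3627 FPKM with PBS, at 5645, 4035 and 5631 FPKM on day 9 and at 2205, 2396 and 919 FPKM on day 14. The groups did not overlap in any comparison, with day 9 above PBS and day 14 below both. The group levels were 3239 ± 336, 5104 ± 925 and 1840 ± 804 FPKM (mean ± SD, n = 3). Between day 9 and day 14 Plat fell by 1.36 ± 0.40 on the log2 scale (SE, adjusted p = 0.0319 by limma). The changes against PBS were 0.61 ± 0.40 on day 9 (adjusted p = 1.0 by limma) and −0.78 ± 0.40 on day 14 (adjusted p = 0.136 by limma), and neither passed.

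Plat was at nearly the same level in ADR_D9 replicates 1 and 3, where the endothelial sums were 37.7 and 4175 FPKM. The part of other cells in the Plat levels was not tested. The order of the Plat levels followed the summed podocyte markers in part, since these were lowest in the day 14 libraries as well, and this was not tested. Without the 2 marker-rich libraries, Plat changed by 0.55 on day 9 against PBS (adjusted p = 0.858 by limma). Its day 14 change against PBS was then −0.95 (adjusted p = 0.0915 by limma). Day 14 against day 9 gave −1.50 without them (adjusted p = 0.0525 by limma). The call passed in 11 of 22 alternatives, with adjusted p from 0.0171 to 0.114, and was lost without PBS replicate 1, PBS replicate 2 or any 1 of the day 9 libraries (−1.49 to −1.26). Of all genes, 4.26% to 12.4% passed without 1 of these libraries, against 15.7% in the main fit.

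Plau, the urokinase gene, had 0.0300, 0.0488 and 0 FPKM in the PBS libraries. Its day 9 values were 0.0207, 0.0732 and 0.187 FPKM. On day 14 it was at 2.86 FPKM in replicate 1 and listed at 0 in replicates 2 and 3. The only library above 1 FPKM was thus 1 of the 2 marker-rich ones, and Plau was not tested. Of the plasminogen activators, these libraries held nearly only Plat RNA.

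Plaur, the receptor that holds urokinase at the cell surface, was at 15.9, 2.92 and 0.0540 FPKM with PBS. It was at 1.19, 0.821 and 54.0 FPKM on day 9 and at 31.1, 2.66 and 5.70 FPKM on day 14. The PBS libraries alone ran from near 0 to 15.9 FPKM, and all groups overlapped. The log2 changes were 0.52 ± 1.49 (SE) on day 9 and 1.31 ± 1.49 on day 14 against PBS, and Plaur passed no comparison. The 3 highest Plaur libraries, ADR_D9 replicate 3, ADR_D14 replicate 1 and PBS replicate 1, were also the 3 with the highest leukocyte sums, at 1450, 2258 and 83.9 FPKM. Without the first of these the day 9 change was −1.06, and without ADR_D14 replicate 1 the day 14 change was 0.44. In PBS replicate 1 the leukocyte marker Tyrobp alone was at 42.7 FPKM. Ptprc, another leukocyte marker, was at 0.0451 FPKM there, against 0.0350 and 0.0841 in the other PBS libraries. It was at 7.88 FPKM in ADR_D9 replicate 3 and 7.05 in ADR_D14 replicate 1. Of 19 leukocyte markers, 7 reached 1 FPKM in PBS replicate 1, 3 in each other PBS library and 13 in each marker-rich library. The part of leukocytes in the Plaur levels was not tested.

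Serpine2, an inhibitor of thrombin and of both plasminogen activators, was at 1.98, 3.18 and 4.48 FPKM with PBS. It was at 1.67, 0.931 and 223 FPKM on day 9 and at 5.58, 0.368 and 14.6 FPKM on day 14. ADR_D9 replicate 3 exceeded every other library by more than 10 times, and the groups overlapped. The log2 change was 1.33 ± 1.67 (SE) on day 9, or −0.86 without that library, and 0.49 ± 1.67 on day 14 against PBS, and Serpine2 passed no comparison. That library, which had the highest endothelial sum, also had the highest sum of mesangial and smooth muscle markers, at 240 FPKM against 32.0 to 136 elsewhere, with Ren1, which encodes renin, at 24.6 FPKM against at most 0.0502 in the other libraries. ADR_D14 replicate 1 carried endothelial and tubule markers, with Serpine2 at 5.58 FPKM. In it, 3 of 13 mesangial and smooth muscle markers were above 4 times the highest PBS library and at least 1 FPKM. ADR_D14 replicate 3, next highest in Serpine2 at 14.6 FPKM, had the lowest mesangial and smooth muscle sum, at 32.0 FPKM. The part of any of these cells in the Serpine2 levels was not tested.

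**Figure D3:**
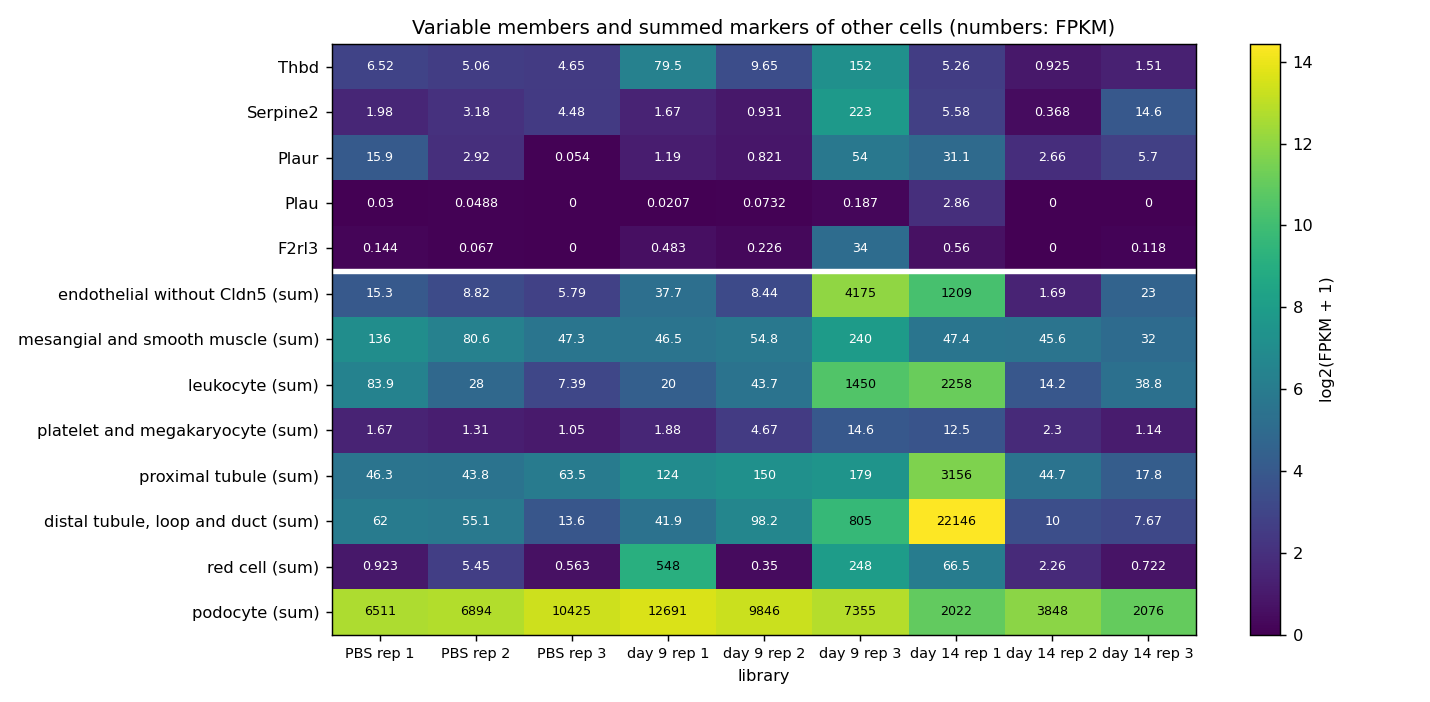
Levels of the variable members and of F2rl3 (top rows) and summed levels of marker lists (bottom rows) in the 9 libraries, coloured by log2(FPKM + 1) with the FPKM printed in each cell. Thbd, Serpine2, Plaur and F2rl3 were highest in ADR_D9 replicate 3, and Thbd alone of these was also high, at 79.5 FPKM, in ADR_D9 replicate 1.

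A wider list of 50 other genes of the system held 18 that were tested. Of these, 0 passed on day 9 against PBS (0 at an unadjusted p under 0.05), 2 passed on day 14 against PBS, both lower, and 5 passed on day 14 against day 9, 1 higher and 4 lower. Of all genes, 0.0%, 17.1% and 15.7% passed. Their median log2 change, relative to the median gene, was −0.24, −0.28 and 0.10 in the 3 comparisons. Without the 2 marker-rich libraries the counts were 0, 3 and 2, where 0.0%, 23.3% and 13.6% of all genes passed.

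Of 16 procoagulant factor genes, only Fgb, a fibrinogen chain, was tested, and it passed no comparison. F11 and F12 were listed at 0 in all 9 libraries, and F2, the prothrombin gene, reached at most 0.0975 FPKM. F13b, a factor XIII subunit, was at 47.8 FPKM and Kng1, the kininogen gene, at 40.2 FPKM in ADR_D14 replicate 1, against at most 0.349 and 1.41 in all other libraries. That library had the highest tubule and leukocyte sums, an endothelial sum of 1209 FPKM and the lowest relative depth. The part of other cells in the F13b and Kng1 levels was not tested.

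Of 9 anticoagulant genes, Pros1 and Anxa5 were tested and neither passed. Anxa5, which encodes a protein that covers the phosphatidylserine on which clotting factors assemble, was abundant, with 2955, 2117 and 2174 FPKM in the PBS libraries. It had 1370, 2351 and 1694 FPKM on day 9 and 690, 1849 and 2342 FPKM on day 14. Pros1, the cofactor of protein C, was at 1.85 to 8.97 FPKM in all libraries.

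Among the 4 protease-activated receptors, F2r (PAR1), the main thrombin receptor, was by far the most abundant in every library. It was at 366, 550 and 563 FPKM with PBS, at 273, 318 and 170 FPKM on day 9 and at 23.9, 184 and 272 FPKM on day 14. All libraries after ADR lay below all PBS libraries. Against PBS, 6.63% of all genes were lower without overlap on day 9 and 23.8% on day 14. The log2 change was −1.01 ± 0.78 (SE) on day 9 and −2.02 ± 0.78 on day 14 (adjusted p = 0.0871 by limma), and neither passed. Without the 2 marker-rich libraries the day 14 change was −0.94 and passed (adjusted p = 0.0331 by limma), and without ADR_D14 replicate 3 it was −2.69 and passed (adjusted p = 0.0401). F2rl1 (PAR2) reached at most 1.65 FPKM, in ADR_D14 replicate 1, and F2rl3 (PAR4) was at 34.0 FPKM in ADR_D9 replicate 3 and at most 0.560 in all others.

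In the fibrinolysis group, 3 of 7 tested genes passed on day 14 against day 9, where 15.7% of all genes did. S100a10, a plasminogen-binding partner of annexin A2, was at 534, 380 and 276 FPKM with PBS, at 299, 356 and 313 FPKM on day 9 and at 804, 933 and 546 FPKM on day 14. All day 14 libraries lay above all others, where 15.6% of all genes were higher without overlap against PBS and 13.2% against day 9. It rose by 1.42 ± 0.31 on the log2 scale between day 9 and day 14 (SE, adjusted p = 0.0327 by limma), and its change of 1.10 ± 0.31 against PBS did not pass (adjusted p = 0.0628 by limma). Plgrkt, a plasminogen receptor, fell by 0.77 ± 0.26 and Mrc2, a collagen uptake receptor that binds the urokinase receptor, fell by 1.0 ± 0.33 between day 9 and day 14 (adjusted p = 0.0374 and 0.0407 by limma). These calls held in 11 (S100a10), 8 (Plgrkt) and 9 (Mrc2) of 22 alternatives. Without the 2 marker-rich libraries none of the 3 passed, with Plgrkt at −0.47, and with a trend on length and GC content removed S100a10 was at 0.53, Plgrkt at −1.82 and Mrc2 at −0.24. Of all genes, 13.6% passed without the 2 marker-rich libraries. Anxa2 itself was at 5901, 5674 and 4782 FPKM in the PBS libraries, at 4269, 4610 and 3182 FPKM on day 9 and at 975, 4846 and 4740 FPKM on day 14. It did not pass (−0.80 ± 0.59 against PBS, adjusted p = 0.285 by limma), and its change was −0.01 without the 2 marker-rich libraries.

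Plg, the plasminogen gene, reached at most 0.114 FPKM, and Lrp1, an uptake receptor for activator and inhibitor complexes, at most 0.636 FPKM.

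Of 8 genes listed here under the synthesis and folding of clotting factors, 6 were tested. Vkorc1l1 and Tmprss6 were not, and Tmprss6 is not an established gene of that synthesis. Among the tested genes, 2 fell on day 14 against PBS and against day 9, where 17.1% and 15.7% of all genes passed. Ggcx, the vitamin K-dependent carboxylase, fell from 27.5 ± 6.92 to 11.9 ± 2.67 FPKM between PBS and day 14 (log2 change −0.99 ± 0.31 SE, adjusted p = 0.037 by limma). P4hb, which encodes protein disulfide isomerase, went from a mean of 503 ± 18.1 down to 243 ± 76.4 FPKM (log2 change −0.95 ± 0.27, adjusted p = 0.0293 by limma). Against day 9 their changes were −0.97 and −0.98 (adjusted p = 0.0338 and 0.0247 by limma). The calls against PBS held in 9 (Ggcx) and 13 (P4hb) of 22 alternatives. Mcfd2 and Pdia3, genes of the secretory pathway, lay higher in all day 14 than in all PBS libraries, as did 15.6% of all genes. Neither passed (1.01 ± 0.33 and 0.73 ± 0.23, adjusted p = 0.104 and 0.112 by limma). The median change of the 6 tested genes was 0.32. The counts of the wider list depended on single libraries, with 0 genes passing on day 14 against PBS without PBS replicate 2 or PBS replicate 3, and 0 passing on day 14 against day 9 without PBS replicate 2 or any 1 of the day 9 libraries. Of all genes, 0.0% and 1.62% passed in the first pair of these fits, and 4.26% to 7.61% in the others.

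**Figure D4:**
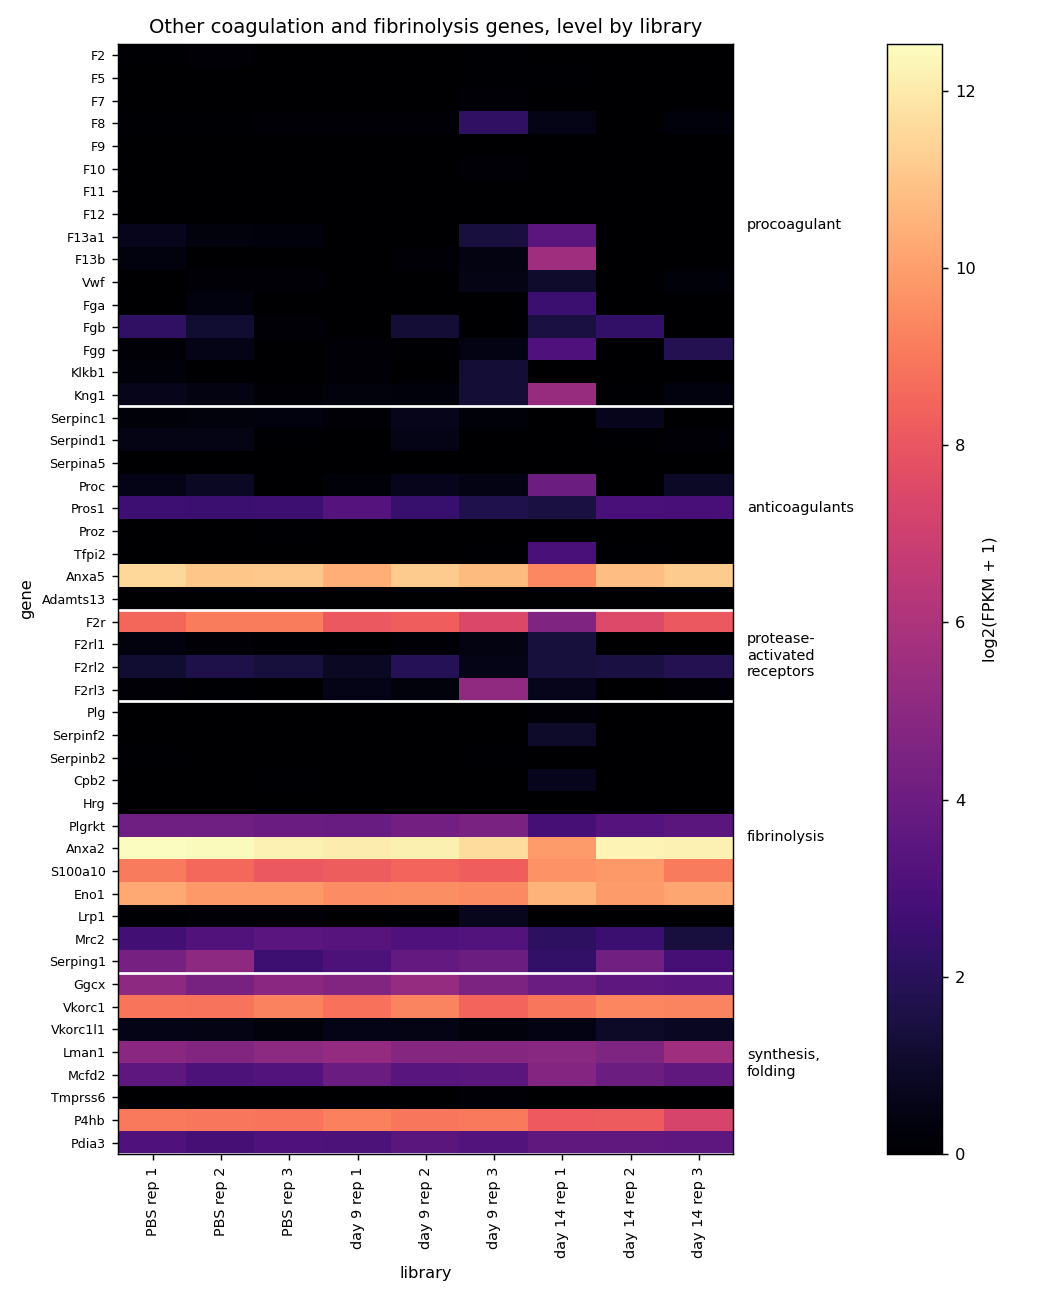
Levels of other coagulation and fibrinolysis genes of the wider list (rows, grouped by role) in the 9 libraries (columns), coloured by log2(FPKM + 1). Most rows are near 0, while Anxa2, Anxa5, Eno1, P4hb, Vkorc1, S100a10 and F2r are bright, and F13b, Kng1 and Proc stand out in ADR_D14 replicate 1 alone.

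As a description of pattern, the 3 genes with the most similar levels over the 9 libraries were found for each tested member by Pearson correlation of log2(FPKM + 1). They were Hapln3, Rhobtb2 and Ralgapa1 for Thbd (0.976, 0.967 and 0.966) and Nol11, Tubgcp5 and Eif4a2 for Plat (0.986, 0.981 and 0.976). They were Edem3, Sdhaf2 and Cul2 for Tfpi (0.986, 0.985 and 0.983), and 2900057B20Rik, Fgfbp1 and Il18 for F3 (0.933, 0.924 and 0.924). For Plaur they were S100a4, Icam1 and Insig1 (0.947, 0.945 and 0.930), and for Serpine2 Lifr, Mettl24 and Smox (0.973, 0.963 and 0.958). These are the highest correlations among the 9788 tested genes, over libraries that share groups, depth and the presence of other cells. Between members, Thbd and Plat correlated at 0.779 and F3 and Tfpi at 0.365 over the same 9 libraries.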

How the data were processed

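RNA of GFP-positive podocytes was sequenced after ribosomal RNA depletion with a Ribo-Zero kit, per the labels' protocols, in 9 libraries. The authors deposited their FPKM values as a single table. Per the submitters' processing notes, Bowtie 0.12.7 and Cufflinks were used with build mm9. The sources used here do not give the annotation, the use of strand or the handling of multiply mapped reads, so values of overlapping genes and close paralogs are uncertain. The PBS libraries were taken to be the control columns with the same replicate numbers. Of 23813 rows, 260 symbols stood on more than 1, and of these the row of highest mean level was used.

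Column totals ran from 572787 to 723288 FPKM. Counts were not used here, so no counting interval is given. Relative depth is the modal ratio to PBS replicate 2 among genes below 0.3 FPKM in both libraries. A listed 0 may be an estimate that failed.

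The 9788 genes reaching 1 FPKM in 3 or more libraries were tested with limma 3.58.1 in R 4.3.3 (variance trend, log2(FPKM + 1), all 9 libraries, group as the only term, two-sided, Benjamini-Hochberg over all genes tested). An adjusted p under 0.05 passed. The pseudocount of 1 understates changes of low genes. Log2 changes have the median change over all tested genes subtracted (0.04 on day 9 and −0.15 on day 14 against PBS, −0.22 on day 14 against day 9), while tests used the values as deposited. The fit was run on simulated data in which all groups had the spread of the PBS libraries. That run does not cover the wider spread or the marker-rich libraries after ADR. The exact permutation test used scipy 1.17.1.

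Members and lists were chosen with earlier results of these data known. Named were all members, fixed genes of the wider list (1 is not reported here), those of it that passed (up to 5 per comparison and direction), and the 3 genes most like each tested member. Genes at or near 0 and others of the wider list, such as F13b, Kng1, Proc, Plg, Anxa5, Pros1, Mcfd2, Pdia3 and F2rl3, were named after their values were seen. Marker lists for podocytes, endothelium, mesangium and smooth muscle, proximal and distal tubule, leukocytes, platelets, liver, red cells and parietal epithelium were read per library. Platelet sums were at most 14.6 FPKM, liver sums at most 4.56 FPKM, and parietal sums 12.5 to 286 FPKM. Alternatives were another pseudocount (0.1), filters, scalings, variance model, threshold (0.1), duplicates summed, a fit of the compared groups alone, a block for replicate number and each library left out. Removal of the 2 marker-rich libraries, a term for Y-linked transcripts, since their levels differed between groups, and removal of a trend on length and GC content (longest GENCODE M21 transcript, 99.4% of genes matched) were chosen after seeing the data.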

Additional observations from a re-analysis of the deposited data

Results flagged for a closer look

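Day 9 and day 14 differed in their change from PBS for 2 of 6 tested members and 5 of 18 tested genes of the wider list. This was by the direct test of day 14 against day 9 (limma, adjusted p under 0.05). That test passed 15.7% of all genes tested, 5.71% as higher and 9.98% as lower. The log2 differences were −3.81 for Thbd, −1.36 for Plat, 1.42 for S100a10, −0.98 for P4hb, −0.97 for Ggcx, −0.77 for Plgrkt and −1.0 for Mrc2. For Thbd and Plat every day 9 library lay above all PBS libraries, and for Plat every day 14 library lay below them. Groups of 3 libraries are too small for a formal test of single outlying libraries. With each library left out in turn, the call held in 6 of 9 fits for Thbd and in 4 of 9 for Plat. In these fits 4.26% to 22.3% of all genes passed.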

How the results depend on the processing

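No value changed direction among the log2 changes of Tfpi, Thbd and Plat over the alternatives run. The count of members that passed on day 14 against PBS (1) was 0 with only the groups compared and with the term for Y-linked transcripts, and 0 to 1 with 1 library left out. On day 14 against day 9 (2) it was 0 with no filter and with only the groups compared, 1 with median-of-ratios scaling, without the 2 marker-rich libraries and with the trend on length and GC removed, 3 with a filter of 5 FPKM, a common total or an adjusted p under 0.1, and 0 to 3 with 1 library left out. The wider list on day 14 against PBS (2) gave 0 with no filter, only the groups compared or the Y-linked term, 1 with median-of-ratios scaling, quantile normalization or the length and GC trend removed, 4 with a filter of 5 FPKM, a common total or no variance trend, 6 at an adjusted p under 0.1, and 0 to 5 with 1 library left out. On day 14 against day 9 (5) it gave 0 with only the groups compared, 1 with no filter, quantile normalization or the trend removed, 2 without the 2 marker-rich libraries, 3 with median-of-ratios scaling, and 0 to 5 with 1 library left out. The share of all genes that passed moved too. On day 14 against PBS it was 17.1%, against 0.0% with the Y-linked term, 4.8% with only the groups compared and 5.23% with no filter. It was 23.9% with a filter of 5 FPKM, 21.4% with a common total, 17.2% with no variance trend and 27.5% at an adjusted p under 0.1. With 1 library left out it ran from 0.0% to 19.5%. On day 14 against day 9 the share was 15.7%. It was 2.68% with only the groups compared, 4.63% with no filter and 4.5% with the trend removed. A filter of 5 FPKM gave 21.1%, a common total 22.7% and an adjusted p under 0.1 gave 27.3%. With 1 library left out this share ran from 4.26% to 22.3%. The cause was not tested.

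Plaur and Serpine2 turned direction. With 1 library left out, Plaur ran from −1.06 to 1.56 on day 9 and from −0.064 to 2.38 on day 14 against day 9, and Serpine2 from −0.86 to 2.52, from −0.29 to 1.45 and from −1.99 to 1.36 in the 3 comparisons. Without the 2 marker-rich libraries Plaur was at −1.06 and Serpine2 at −0.86 on day 9, and Serpine2 at 1.21 on day 14 against day 9. With the Y-linked term Plaur was at −1.11 on day 9 and −0.46 on day 14, and Serpine2 at −0.77 and −1.79. F3 on day 14 against day 9 was at −0.12 with the trend removed.

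Same-numbered libraries deviated together in 1 of 9 pairs only (correlations from −0.27 to 0.43, threshold 0.1), and 0 of 9 libraries correlated best with their own number in both other groups. With the replicate number as a block, 1 member passed against PBS on day 14 and 1 between day 14 and day 9 (Thbd, with Plat at adjusted p = 0.064 by limma), and the wider list gave 1 and 2. In that fit 13.3% and 12.3% of all genes passed, against 17.1% and 15.7% in the main fit. Of all genes that passed on day 14 against PBS, 37.1% were higher, against 52.9% with median-of-ratios scaling, 48.5% with quantile normalization, 19.8% with a common total and 50.9% with the trend removed. On day 14 against day 9 these shares were 36.4%, 56.1%, 55.9%, 17.7% and 63.0%. The low depth of the day 14 libraries limits values near 0.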
